A study of Mus musculus with 20 samples.

Results

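The genes described here are the platelet-derived growth factor (PDGF) receptors Pdgfra and Pdgfrb, the PDGF ligands Pdgfa, Pdgfb, Pdgfc and Pdgfd, and the paired heparin-binding growth factors pleiotrophin (Ptn) and midkine (Mdk). They are 8 of the 48440 genes in the deposited table and were taken by symbol, after the version of each Ensembl identifier was dropped. No measured value entered that step, but the genes themselves were chosen with earlier results of these data known. Both PDGF receptors are tyrosine kinases of the cell surface: a dimeric ligand brings a pair of receptor chains together, which phosphorylate each other and recruit adaptors of the Ras, PI3-kinase and phospholipase C pathways. PDGF-A and PDGF-C act mainly through the alpha receptor, PDGF-B through both receptors and PDGF-D mainly through the beta receptor. In adipose tissue the alpha receptor marks fibroblast-like adipocyte progenitors, the beta receptor marks mural cells and a share of progenitors, and the receptors decline as progenitors become fat cells. Pleiotrophin and midkine are secreted, bind heparan and chondroitin sulfate, and signal through the phosphatase Ptprz1, the kinase Alk, syndecans, integrins and Lrp1.

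The study measured total RNA by RNA sequencing in 3T3-L1 adipocytes, a mouse embryonic fibroblast line (Swiss mouse) that turns into fat cells in culture, with modulated levels of the forkhead transcription factors Foxk1 and Foxk2. All 20 libraries came from cells differentiated with dexamethasone at 1 µM, isobutyl methylxanthine at 0.5 mM, insulin at 5 µg/ml and troglitazone at 10 µM, then kept in insulin alone from day 4 and in growth medium from day 6. There were 8 groups. The Foxk1 overexpression and Foxk1 shRNA groups had 3 libraries each, as had their own controls, and the Foxk2 overexpression and Foxk2 shRNA groups had 2 each, as had theirs. Overexpression controls carried an empty vector and knockdown controls a scrambled shRNA. The labels name neither the promoter of the constructs nor the number of shRNAs or clones, and whether replicates were grown apart is not stated there. The p-values then reflect only how far these libraries spread, which may be technical.

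The targeted genes were examined first. Foxk1 lay at 2.95 to 3.46 RPKM (reads scaled by exon length and by library size) in its knockdown against 7.99 to 8.80 in the controls. In the libraries labelled Foxk1 overexpression it lay at 6.06 to 6.16 against 7.12 to 8.04, so the label is not borne out by this transcript, and every direction given for those libraries rests on the label alone. Foxk2 lay at 3.25 to 3.29 RPKM in its knockdown against 12.7 to 13.1, and at 19.93 to 19.98 in its overexpression against 13.3 to 13.4. The factor not targeted moved as well. On the log2 scale Foxk2 changed by 0.29 with labelled Foxk1 overexpression and by -0.19 in the Foxk1 knockdown. Foxk1 changed by -0.66 with Foxk2 overexpression and by 0.30 in the Foxk2 knockdown. Each of these had a limma adjusted p under 0.05. Depth was 16739763 to 20772823 reads in the Foxk1 libraries and 31378224 to 36157008 in the Foxk2 libraries, and the first principal component, with 79.5% of the variance, parted these 2 sets. Each manipulation was therefore tested against its own controls, and levels set side by side across sets are descriptions without a test. The adipocyte marker Adipoq, which encodes adiponectin, was abundant in every group, with group means of 668 to 3043 RPKM.

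Of the 8 genes, 5 reached the level needed for a test (0.5 RPKM in at least 2 libraries): Pdgfra, Pdgfrb, Pdgfa, Pdgfc and Ptn. Pdgfb, Pdgfd and Mdk did not. In the libraries labelled Foxk1 overexpression, 3 of the 5 fell and none rose (limma, adjusted p under 0.05), where 47.8% of all 15981 tested genes were called, 23.8% lower and 24.1% higher. In the Foxk1 knockdown 4 rose and none fell, where 35.9% of all genes were called, 20.4% higher and 15.5% lower. In the Foxk2 overexpression 4 fell and 1 rose, with 45.0% of all genes called, 22.0% lower and 23.0% higher. In the Foxk2 knockdown 4 rose and none fell, with 33.7% of all genes called, 18.0% higher and 15.7% lower. Pdgfra, Pdgfrb and Ptn fell in both overexpression comparisons and rose in both knockdowns, as did 6.98% of all tested genes, while 4.52% did the reverse in all 4. Pdgfra and Ptn did so by 1 or more on the log2 scale each time, together with 41 other genes, which makes 43 in all, or 0.269% of those tested. In RNA from whole cultures, fewer cells of a type and less RNA per cell cannot be told apart.

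**Figure D1:**
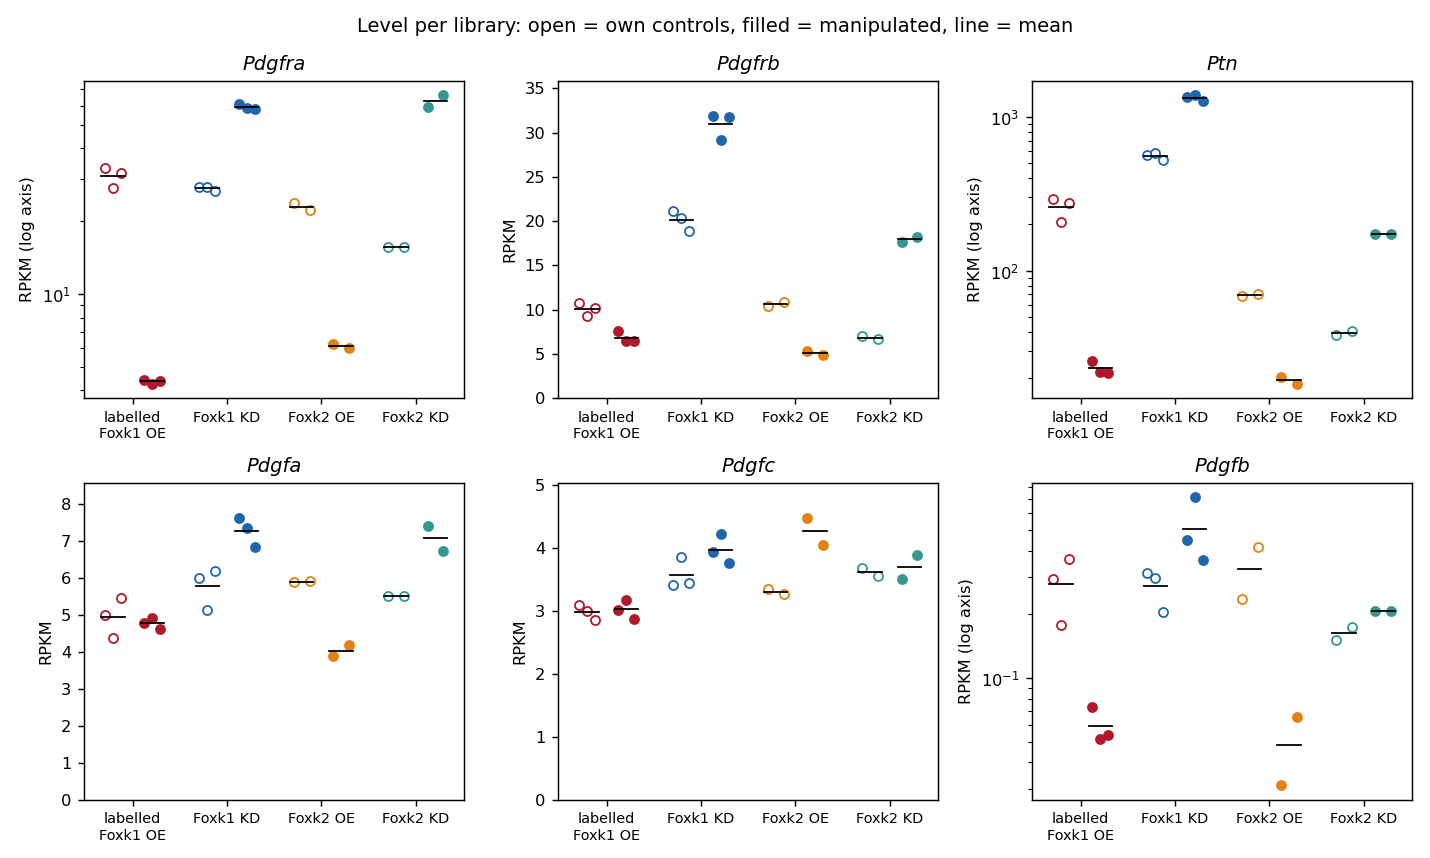
Level of 6 genes in each library. The vertical axis is RPKM, on a log axis for Pdgfra, Ptn and Pdgfb and from 0 for the others; open points are a set's own controls, filled points the manipulated libraries and lines the group means. Pdgfra, Pdgfrb and Ptn sit below their controls in both overexpression sets and above them in both knockdown sets, while Pdgfc stays between 2.86 and 4.47 RPKM throughout.

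Pdgfra, the receptor for PDGF-A and PDGF-C homodimers, moved in all 4 comparisons and ended at similar heights in both knockdowns. Its gene (ENSMUSG00000029231.15) lies on the plus strand of mm10 at chr5:75152292-75198215. In the libraries labelled Foxk1 overexpression its level was 4.44, 4.27 and 4.37 RPKM, against 33.1, 27.5 and 31.6 in the controls. In the Foxk2 overexpression it was 6.22 and 6.01 RPKM against 23.7 and 22.1. The manipulated libraries thus all lay far under the lowest of their controls. Ranges were apart in these sets for 52.3% and 70.3% of all tested genes. The log2 fold change was -2.68 (SE 0.056, limma adjusted p = 1.86e-14) in the first and -1.82 (SE 0.068, adjusted p = 2.32e-11) in the second.

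In the Foxk1 knockdown Pdgfra stood at 60.7, 58.5 and 58.3 RPKM, against 27.8, 27.8 and 26.7 with scrambled shRNA. In the Foxk2 knockdown it stood at 59.2 and 66.1 RPKM against 15.6 and 15.7. Every knockdown library was above every control library of the series, and the ranges of the 2 knockdowns overlapped although their controls did not. Pdgfra rose by 1.10 on the log2 scale (limma adjusted p = 1.35e-09) in the Foxk1 knockdown and by 1.96 (adjusted p = 4.67e-11) in the Foxk2 knockdown. Among all tested genes this was the 15th largest increase of the Foxk2 knockdown, and its decrease was the 17th largest with labelled Foxk1 overexpression. From the highest group mean to the lowest, the order was Foxk2 knockdown, Foxk1 knockdown, Foxk1 overexpression controls, Foxk1 knockdown controls, Foxk2 overexpression controls, Foxk2 knockdown controls, Foxk2 overexpression and labelled Foxk1 overexpression. In this order the ranges of the knockdowns overlapped, as did those of the Foxk1 control groups, and all other neighbours were apart. The antisense gene Gm42802 shares 456 bases of Pdgfra exon (4.55%), and it lay at up to 5.77 RPKM in the Foxk1 libraries and at 0 in all Foxk2 libraries. The strand setting of the counting is not given in the sources used here, so reads of these 2 genes cannot be told apart there.

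Pdgfrb, the receptor that PDGF-B and PDGF-D use and a mural cell marker, moved the same way by less. Its gene (ENSMUSG00000024620.11) is on chromosome 18, and no other annotated gene overlaps it. With labelled Foxk1 overexpression it lay at 7.53, 6.47 and 6.40 RPKM against 10.7, 9.24 and 10.2 in the controls. With Foxk2 overexpression it lay at 5.37 and 4.82 RPKM against 10.4 and 10.9. The ranges did not overlap in either set, as was so for 52.3% and 70.3% of all tested genes. The log2 fold changes were -0.53 (SE 0.067, limma adjusted p = 9.11e-06) and -0.996 (SE 0.082, adjusted p = 9.73e-08).

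The Foxk1 knockdown libraries held 31.9, 29.2 and 31.8 RPKM of Pdgfrb against 21.2, 20.3 and 18.8 in their controls. The Foxk2 knockdown libraries held 17.6 and 18.3 RPKM against 7.03 and 6.63. Ranges were again apart, as for 44.2% and 67.2% of all genes. Pdgfrb rose by 0.61 (limma adjusted p = 3.76e-06) and by 1.33 (adjusted p = 1.06e-08) on the log2 scale. Unlike Pdgfra, its level in the Foxk2 knockdown did not reach that of the Foxk1 knockdown or of the Foxk1 knockdown controls, which at 18.8 to 21.2 RPKM were the highest of the control groups. Foxk2 overexpression controls overlapped Foxk1 overexpression controls, and Foxk2 knockdown controls overlapped the labelled Foxk1 overexpression libraries. The other neighbours in the order were apart.

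RPKM is scaled by exon length, so receptor levels can be set side by side within a library, but their ratio depends on the length used. The scaling took all exons of a gene, 10024 bases for Pdgfra and 5478 for Pdgfrb, against transcripts of 6834 and 5423 bases. Changes of the ratio between libraries do not depend on it. The Pdgfra to Pdgfrb ratio was 2.98 to 3.11 in the Foxk1 overexpression controls and 0.590 to 0.683 in the libraries labelled Foxk1 overexpression. These were the only libraries with more RPKM of Pdgfrb than of Pdgfra, an order that also depends on the length used. The ratio was 2.03 to 2.28 against 1.16 to 1.25 for Foxk2 overexpression. It went up from 1.31 to 1.42 in the controls to 1.83 to 2.01 in the Foxk1 knockdown, and from 2.22 to 2.37 to 3.36 to 3.62 in the Foxk2 knockdown. The manipulated and control libraries did not overlap in any set. The two-sided exact permutation p was 0.1 in both Foxk1 sets and 0.333 in both Foxk2 sets, in each case the smallest that 3 against 3 or 2 against 2 libraries allow.

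**Figure D2:**
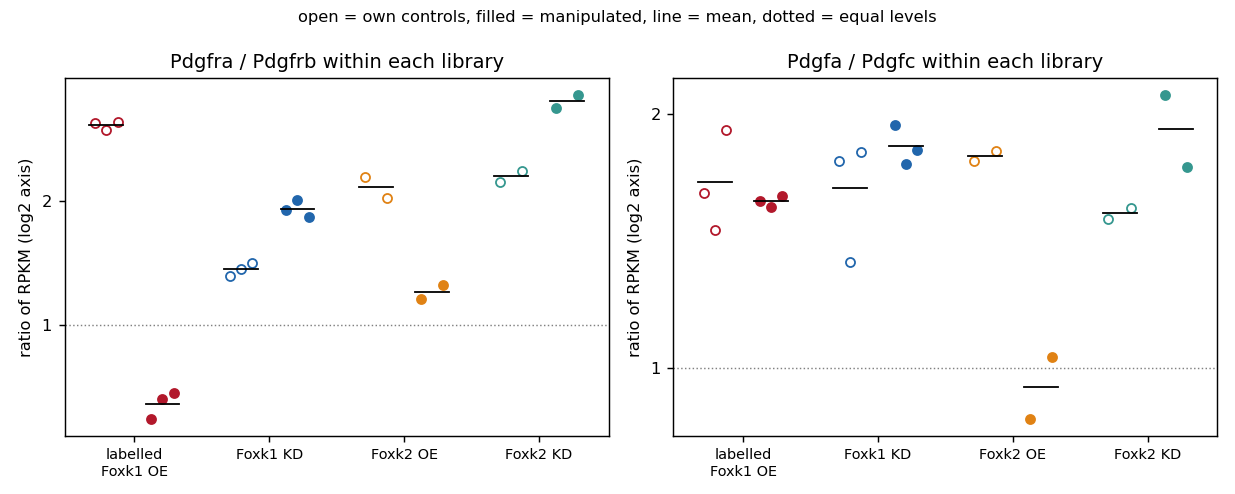
Ratio of 2 genes' RPKM within each library, on a log2 axis, for the receptors (left) and for the tested ligands (right); open points are a set's own controls, filled points the manipulated libraries, lines the group means, and the dotted line marks equal levels. The receptor ratio is 0.590 to 0.683 in the libraries labelled Foxk1 overexpression and 3.36 to 3.62 in the Foxk2 knockdown; the ligand ratio is lowest, at 0.870 and 1.03, in the Foxk2 overexpression.

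The receptor-like gene Pdgfrl, which encodes a secreted protein with immunoglobulin domains related to the PDGF receptors, was measured as a further gene of the family. Its level was 1.57 to 1.93 RPKM with labelled Foxk1 overexpression against 12.9 to 14.3, and 3.11 to 3.17 with Foxk2 overexpression against 5.34 to 5.71. It was 19.3 to 20.5 RPKM in the Foxk1 knockdown against 7.71 to 8.48, and 10.2 to 10.9 in the Foxk2 knockdown against 2.55 to 2.96. The log2 fold changes of Pdgfrl were -2.63, -0.73, 1.22 and 1.76 in that order, all past the test.

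Pdgfa and Pdgfc, the PDGF ligands that could be tested, had lower RPKM than both receptors in every control and knockdown library. In the libraries labelled Foxk1 overexpression each Pdgfa value exceeded each Pdgfra value. Pdgfa (ENSMUSG00000025856.15, minus strand, chr5:138976014-138997370) encodes the PDGF-A chain, which binds the alpha receptor. With labelled Foxk1 overexpression it lay at 4.77, 4.93 and 4.61 RPKM against 4.99, 4.39 and 5.47, ranges that overlapped. The log2 fold change there was -0.04 (95% interval -0.20 to 0.11, limma adjusted p = 0.668). With Foxk2 overexpression Pdgfa lay at 3.89 and 4.18 RPKM against 5.89 and 5.91, and it fell by 0.50 on the log2 scale (adjusted p = 0.00027).

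In the Foxk1 knockdown Pdgfa lay at 7.62, 7.35 and 6.83 RPKM against 5.99, 5.15 and 6.20, and in the Foxk2 knockdown at 7.41 and 6.74 against 5.52 and 5.50. Knockdown libraries were above their controls in both sets, where ranges were apart for 44.2% and 67.2% of all tested genes. The log2 increases were 0.31 (limma adjusted p = 0.00347) and 0.33 (adjusted p = 0.00885). The second rested on 1 library: without replicate 1 of the Foxk2 knockdown it was 0.27 (adjusted p = 0.0904). An antisense gene, 6330403L08Rik, shares 813 bases with Pdgfa exons (26.1% of them) and had mean levels of 2.41 and 2.28 RPKM in the labelled Foxk1 and the Foxk2 overexpression, against 1.52 and 1.20 in their controls. What part of the Pdgfa reads it supplied was not tested.

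Pdgfc (ENSMUSG00000028019.9, plus strand, chr3:81036416-81214040) encodes the PDGF-C chain, an alpha receptor ligand that proteases must cleave before it can bind. It was the steadiest of the 5 tested genes, with a highest level only 1.57 times the lowest. In the labelled Foxk1 overexpression it lay at 3.02, 3.18 and 2.88 RPKM against 3.09, 3.01 and 2.86, and in the Foxk1 knockdown at 3.93, 4.21 and 3.76 against 3.41, 3.85 and 3.44. Both pairs of ranges overlapped and neither passed the test (limma log2 fold change 0.02, adjusted p = 0.866, and 0.14, adjusted p = 0.0821). Without replicate 2 of the Foxk1 knockdown controls the second did (0.19, adjusted p = 0.030).

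Foxk2 overexpression was where Pdgfc rose, to 4.47 and 4.05 RPKM against 3.34 and 3.27, by 0.32 on the log2 scale (limma adjusted p = 0.00163). In the Foxk2 knockdown its values, 3.51 and 3.89 RPKM, lay around the control values of 3.67 and 3.55 (log2 fold change 0.03, 95% interval -0.12 to 0.18). Pdgfc was therefore higher, and Pdgfa lower, in the same 2 Foxk2 overexpression libraries, and the Pdgfa to Pdgfc ratio was 0.870 and 1.03 there against 1.76 to 1.81 in the controls. The antisense gene Gm16000 shares 147 bases with Pdgfc exons and lay at 0 in both Foxk2 overexpression libraries and their controls.

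Pdgfb, the PDGF-B chain that binds both receptors, was at the edge of detection. Its 20 libraries held 3 to 39 reads each, 327 in all, or 0.031 to 0.72 RPKM. Its identifier version did not match the GENCODE M21 annotation. These reads were inferred with the shortest length that made all values whole, 2918 bases against 4161 of merged exons. They are the smallest counts that fit. Pdgfb lay at 0.051 to 0.073 RPKM with labelled Foxk1 overexpression against 0.178 to 0.365, and at 0.031 and 0.066 with Foxk2 overexpression against 0.237 and 0.416. Knockdown libraries held 0.361 to 0.717 RPKM against 0.206 to 0.314 for Foxk1, and 0.207 and 0.208 against 0.151 and 0.175 for Foxk2. The manipulated libraries lay on the same side of their controls as those of Pdgfra in each set. Ranges were apart for 52.3% and 44.2% of all tested genes in the labelled Foxk1 overexpression and the Foxk1 knockdown. In the Foxk2 overexpression and knockdown they were apart for 70.3% and 67.2%. Tested without the minimum level on the log2(RPKM + 0.5) scale, which understates changes of so low a gene, Pdgfb gave log2 fold changes of -0.47 (limma adjusted p = 0.00876) and -0.58 (adjusted p = 0.00814) in the labelled Foxk1 and the Foxk2 overexpression. The knockdowns gave 0.37 (adjusted p = 0.0439) and 0.10 (adjusted p = 0.867). Tested with recovered whole reads and a lower minimum (voom, an alternative added after the data were seen), Pdgfb fell by 2.05 (adjusted p = 0.00114) and fell by 2.64 (adjusted p = 0.000154) on the log2 scale in the overexpression sets. It rose by 0.84 in the Foxk1 knockdown (adjusted p = 0.0427). The Foxk2 knockdown gave 0.35 (adjusted p = 0.545).

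Pdgfd, the PDGF-D chain, had 2 reads in the whole series and was at 0 in 18 of 20 libraries, which allows up to 0.027 to 0.057 RPKM by the 3 reads that a count of 0 permits, counting error only. Its reads, too, rest on the shortest length that fitted, 3119 bases. Mdk, midkine, had 34 reads in all, with 6 libraries at 0 and none above 0.158 RPKM. No difference in either gene could be detected at this depth. Of the pair of heparin-binding factors, only pleiotrophin was measurably expressed.

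Ptn (ENSMUSG00000029838.11, minus strand, chr6:36714929-36810220) was the most abundant and the most variable of the 8 genes, with a highest level 75.2 times the lowest. The libraries labelled Foxk1 overexpression held 25.7, 22.0 and 21.7 RPKM against 294, 209 and 276 in the controls. The Foxk2 overexpression libraries held 20.3 and 18.4 RPKM against 68.9 and 70.4. Both overexpression groups ended near 20 RPKM from control levels that differed by more than their spread. The log2 fold changes were -3.45 (SE 0.098, limma adjusted p = 5.17e-13), the 4th largest decrease among all tested genes in the labelled Foxk1 comparison, and -1.82 (SE 0.12, adjusted p = 8.18e-09).

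In the Foxk1 knockdown Ptn reached 1360, 1383 and 1270 RPKM against 565, 582 and 527 with scrambled shRNA. In the Foxk2 knockdown it reached 172 and 174 RPKM against 38.0 and 40.2. The increases were 1.26 (limma adjusted p = 8.86e-08) and 2.13 (adjusted p = 4.58e-09) on the log2 scale, the second being the 11th largest increase of the Foxk2 knockdown. Ranked by RPKM among the tested genes of a library, Ptn stood at place 22 to 24 in the Foxk1 knockdown, and it took 0.436% to 0.475% of all reads there. It stood at place 2343 to 2758 with labelled Foxk1 overexpression.

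No group range of Ptn overlapped another. The 4 control groups alone spanned 39.1 to 558 RPKM in their means, a 14.3-fold range, against 1.96-fold for Pdgfra and 2.95-fold for Pdgfrb. The Foxk1 knockdown controls were highest for Ptn and Pdgfrb, the Foxk1 overexpression controls for Pdgfra, and the Foxk2 knockdown controls were lowest for all 3 genes. Controls of the same kind differed too, as the Foxk1 and Foxk2 scrambled shRNA groups show for Ptn, with means of 558 and 39.1 RPKM.

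**Figure D3:**
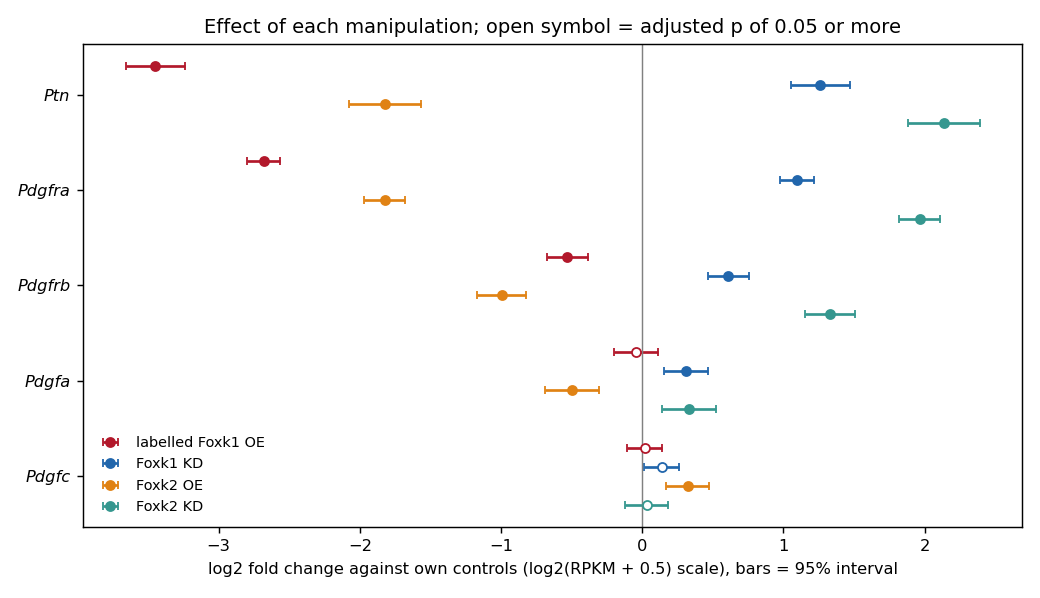
Log2 fold change of the 5 tested genes in each manipulation against its own controls, on the log2(RPKM + 0.5) scale. Points are limma estimates, bars 95% intervals, and open points did not pass an adjusted p of 0.05. Ptn and Pdgfra have the longest distances to 0 on both sides, Pdgfrb follows, and Pdgfa and Pdgfc lie within 0.50 of 0.

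The effects of the manipulations were then set against each other in the same model. Overexpression and knockdown of the same factor differed for Pdgfra by -3.78 in the Foxk1 sets and -3.79 in the Foxk2 sets, so the distance between the 2 manipulations was of similar size although its split was not. For Ptn these differences were -4.71 and -3.96, and for Pdgfrb -1.14 and -2.33. Pdgfa differed by -0.35 (limma adjusted p = 0.00958) and -0.83, and Pdgfc by -0.12 (adjusted p = 0.249) and 0.29 (adjusted p = 0.0260). In all, 4 of the 5 genes differed in the Foxk1 sets, where 49.6% of all genes did, and 5 in the Foxk2 sets, where 48.2% did.

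Between the factors, the labelled Foxk1 overexpression lowered Ptn by 1.63 (limma adjusted p = 3.76e-06) and Pdgfra by 0.86 (adjusted p = 7.75e-06) more than Foxk2 overexpression did on the log2 scale. For Pdgfrb and Pdgfa the decrease was greater with Foxk2 overexpression, by 0.47 (adjusted p = 0.00477) and 0.45 (adjusted p = 0.00933). All 5 genes differed between the overexpressions, as did 25.1% of all genes. For Pdgfc (-0.31, adjusted p = 0.0243) the call was lost under quantile normalization and when any 1 of 5 libraries was left out, with adjusted p from 0.0193 to 0.140 over all alternatives, which leaves 4 genes. The Foxk2 knockdown raised Pdgfra by 0.87 (adjusted p = 2.19e-05), Ptn by 0.87 (adjusted p = 0.0015) and Pdgfrb by 0.72 (adjusted p = 0.000349) more than the Foxk1 knockdown did. These 3 genes differed between the knockdowns, where 14.3% of all genes did. Pdgfa differed by -0.02 (95% interval -0.27 to 0.22) and Pdgfc by 0.11 (95% interval -0.09 to 0.30) between the knockdowns, both without passing the test. The sets were sequenced to different depths, and in each set the transcript of the factor not targeted moved too. The part of either in these differences was not tested.

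The start regions of Pdgfra and Ptn are shown because these genes moved together by the largest amounts. Of the 8 genes, 5 had a start region in the RefSeq table (GRCm38.p6): Pdgfra, Pdgfa, Pdgfc, Pdgfd and Ptn. The first stretch is chr5:75152001-75152250, plus strand, and the second chr6:36810221-36810429, minus strand. Each runs up to the bases before the RefSeq start, and for Ptn the last 41 bases were left out because the GENCODE gene already covers them. Capitals mark matches on either strand to any of the forkhead words GTAAACA and ATAAACA, their shared core AAACA, the C/EBP-type word TTGCNNAA, the GC box GGGCGG, the CCAAT box and the TATA word TATAAA.
Pdgfra: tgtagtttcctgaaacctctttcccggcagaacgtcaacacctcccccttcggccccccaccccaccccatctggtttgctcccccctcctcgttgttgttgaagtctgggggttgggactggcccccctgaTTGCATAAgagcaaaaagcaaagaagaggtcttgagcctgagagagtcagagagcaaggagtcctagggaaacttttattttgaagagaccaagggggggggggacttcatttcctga
Ptn: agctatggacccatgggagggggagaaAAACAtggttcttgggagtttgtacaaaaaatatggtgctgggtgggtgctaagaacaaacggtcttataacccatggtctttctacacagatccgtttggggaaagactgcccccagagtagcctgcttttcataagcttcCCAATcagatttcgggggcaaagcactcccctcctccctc
The Pdgfra stretch holds 1 word, TTGCNNAA, 118 to 111 bases before the start, as do 9.56% of the 32851 mouse start regions of 250 bases. The Ptn stretch holds AAACA (in 46.4% of all regions) 223 bases and CCAAT (in 33.8%) 81 bases before the start. The full forkhead words, found in 3.17% and 4.16% of all regions, are in the window of none of the 5 genes. The words were chosen with these sequences in view, and a match or its lack in this window says nothing about where a factor binds.

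The genes whose profiles were nearest to Pdgfra over the 10 manipulated libraries, each library taken against the mean of its own controls, were Sned1, Cdh11 and Gdpd2. Their root mean square differences from Pdgfra were 0.22, 0.23 and 0.23 on the log2 scale. Cdh11 encodes a mesenchymal cadherin, and its log2 fold changes were -2.50, 1.15, -1.50 and 1.66 in the labelled Foxk1 overexpression, Foxk1 knockdown, Foxk2 overexpression and Foxk2 knockdown. Nearest to Ptn were Itgbl1 (0.26), Ogn (0.27) and Dcn (0.43), the last 2 of which encode the small leucine-rich proteoglycans osteoglycin and decorin. Nearest to Pdgfrb were Tnxb (0.10), which encodes the matrix protein tenascin-X, Marcksl1 (0.11) and Samd14 (0.12). Among the tested members themselves, Pdgfa and Pdgfc were nearest at 0.41, and Pdgfra and Ptn were 0.44 apart. Pdgfrb was 0.60 from Pdgfa and 1.30 from Pdgfra. The libraries of a set share their controls, so these distances are descriptions only.

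Of the genes that pleiotrophin and midkine bind, the classical receptors were close to absent. Alk, the kinase, had at most 0.021 RPKM, and Ptprz1, the receptor phosphatase, at most 0.0037. Of the 18 receptors and binding partners listed, 10 could be tested. In the labelled Foxk1 overexpression 3 rose and 5 fell (median log2 fold change -0.17), and in the Foxk1 knockdown 7 rose and 1 fell (0.34). In the Foxk2 overexpression 3 rose and 4 fell (-0.04), and in the Foxk2 knockdown 6 rose and 1 fell (0.23). Over all tested genes, 24.1%, 20.4%, 23.0% and 18.0% rose and 23.8%, 15.5%, 22.0% and 15.7% fell in the labelled Foxk1 overexpression, Foxk1 knockdown, Foxk2 overexpression and Foxk2 knockdown, with medians between 0.00 and 0.02.

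The partners that moved as Ptn did were Itgb3, the beta3 integrin subunit (log2 fold changes -1.49, 1.08, -1.51 and 1.16, in the order labelled Foxk1 overexpression, Foxk1 knockdown, Foxk2 overexpression, Foxk2 knockdown), Nrp1, the neuropilin coreceptor (-1.09, 0.35, -0.60, 0.77), Lrp1, a large endocytic receptor (-0.59, 0.45, -0.61, 0.92), and the syndecan Sdc3 (-0.49, 0.33, -0.79, 0.91). Itga6, the alpha6 integrin subunit, went the other way in all 4 (0.54, -0.45, 0.60, -0.59). Itgb3 was among the 43 genes named above with Ptn and Pdgfra.

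Proteases that cut PDGF chains were tested for 4 of 8 listed genes. Plat, the tissue plasminogen activator that releases active PDGF-C, had log2 fold changes of -1.42, 1.63, -0.75 and 1.33 in the same order, and Plau, the urokinase that can activate PDGF-D, -0.59, 0.59, -0.78 and 0.43. All 8 values passed the test, that of Plau in the Foxk2 knockdown narrowly (limma adjusted p = 0.0464). Over all tested genes 47.8%, 35.9%, 45.0% and 33.7% were called in the same order. Furin, the convertase that processes PDGF-A and PDGF-B, rose by 0.17 with labelled Foxk1 overexpression and by 0.35 in the Foxk2 knockdown. The remaining tested protease was called in no comparison. Pdgfc itself was called in 1 comparison and Plat in all 4.

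The adaptors and effectors below the receptors moved in both directions. All 32 were tested. In the order used above, 34.4%, 31.2%, 34.4% and 31.2% rose (11, 10, 11 and 10 genes), against 24.1%, 20.4%, 23.0% and 18.0% of all genes. Those that fell were 25.0%, 18.8%, 28.1% and 15.6% (8, 6, 9 and 5 genes), against 23.8%, 15.5%, 22.0% and 15.7%, and the median lay between -0.01 and 0.04. Src, the kinase that docks to activated receptors, was the one with the largest called change of the list in an overexpression set (-0.27, 0.39, -0.96, 0.53). Map2k1, the kinase of the MAP kinase cascade, went the other way (0.44, -0.34, 0.49, -0.18), as did Stat5a (0.22, -0.28, 0.37, -0.15).

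Among 19 tested genes of 21 that restrain or traffic the receptors, 7, 8, 3 and 12 rose and 8, 1, 11 and 0 fell, with medians of -0.07, 0.08, -0.31 and 0.28. This is 36.8%, 42.1%, 15.8% and 63.2% higher, against 24.1%, 20.4%, 23.0% and 18.0% of all genes, and 42.1%, 5.26%, 57.9% and 0% lower, against 23.8%, 15.5%, 22.0% and 15.7%. Those called with the direction of Pdgfra in all 4 comparisons were Slc9a3r2, a scaffold that binds PDGF receptors (-1.57, 0.70, -1.34, 1.14), the cytokine signalling suppressors Socs1 (-0.92, 0.57, -0.72, 0.96) and Socs3 (-0.92, 0.87, -1.38, 1.51), and the Ras pathway inhibitor Spry2 (-0.33, 0.59, -0.76, 0.47). Dusp6, the ERK phosphatase, fell by 0.45 and 1.01 in the overexpression sets and was called in neither knockdown.

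Of 17 immediate early genes that growth factors induce, 16 were tested, and 6, 10, 3 and 8 rose while 4, 2, 10 and 1 fell. The shares were 37.5%, 62.5%, 18.8% and 50% higher, against 24.1%, 20.4%, 23.0% and 18.0% of all genes, and 25.0%, 12.5%, 62.5% and 6.25% lower, against 23.8%, 15.5%, 22.0% and 15.7%. Egr1 (-0.68, 0.55, -1.30, 0.47), Junb (-0.54, 0.70, -0.91, 1.25) and Klf4 (-0.31, 0.72, -0.36, 0.84) were called in all 4 with the direction of Pdgfra. Atf3, a stress-responsive factor, went the other way in all 4 (0.44, -0.72, 0.27, -0.42), and Klf10 rose in both overexpression sets (0.78 and 0.39) and fell by 0.26 in the Foxk1 knockdown. The median was -0.03, 0.46, -0.44 and 0.26.

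Of 16 related class III receptor and VEGF family genes, 10 were tested, and 3, 6, 1 and 5 rose while 6, 1, 5 and 1 fell, where 24.1%, 20.4%, 23.0% and 18.0% of all genes rose and 23.8%, 15.5%, 22.0% and 15.7% fell. Csf1, the macrophage colony-stimulating factor (-0.69, 0.76, -0.73, 1.06), and the lymphatic growth factors Vegfc (-1.34, 0.65, -0.74, 0.77) and Vegfd (-1.83, 1.01, -0.83, 0.84) followed the direction of the PDGF receptors. Vegfa, the main angiogenic factor, went the other way in all 4 (0.45, -0.72, 0.49, -0.45).

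**Figure D4:**
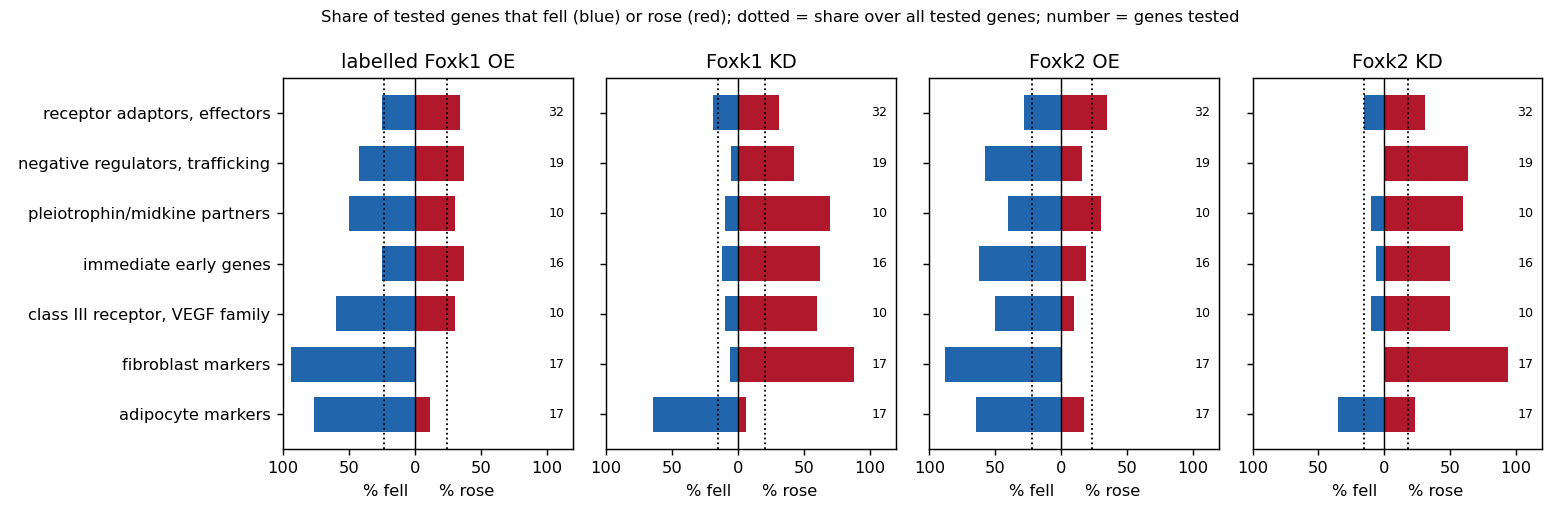
Share of the tested genes of 7 lists that rose (red, right) or fell (blue, left) in each comparison at an adjusted p under 0.05, in percent of the tested genes of the list. Dotted lines give the same shares over all 15981 tested genes and the number at the right of each bar is the genes tested; fibroblast markers fell in 94.1% and 88.2% in the overexpression sets and rose in 88.2% and 94.1% in the knockdowns.

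Markers of other cell states moved with these results. Of 20 preadipocyte and fibroblast markers, which do not include the 8 genes, 17 were tested. With labelled Foxk1 overexpression 16 fell and with Foxk2 overexpression 15, where 23.8% and 22.0% of all genes fell. In the Foxk1 knockdown 15 rose and 1 fell, where 20.4% of all genes rose and 15.5% fell. In the Foxk2 knockdown 16 rose, where 18.0% of all genes did. The summed level of the markers was 866 to 890 RPKM against 1757 to 2021, 841 to 853 against 1695 to 1739, 4540 to 4772 against 2795 to 2998, and 2550 to 2618 against 1164 to 1179, in that order of sets. Among them Dlk1, the preadipocyte factor, had mean levels of 15.5 against 62.7 RPKM, 10.7 against 33.9, 207 against 113 and 55.7 against 24.8. The part of undifferentiated cells in the receptor and Ptn changes was not tested.

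Of 17 adipocyte markers tested, 13 fell and 2 rose with labelled Foxk1 overexpression, and 11 fell and 1 rose in the Foxk1 knockdown. With Foxk2 overexpression 11 fell and 3 rose, and in the Foxk2 knockdown 6 fell and 4 rose. In this order, 23.8%, 15.5%, 22.0% and 15.7% of all genes fell and 24.1%, 20.4%, 23.0% and 18.0% rose. The summed level of the adipocyte markers was lower than in the controls in all 4 sets: 16592 to 16718 RPKM against 23373 to 24283, 15285 to 16220 against 20225 to 20899, 18761 to 18999 against 24484 to 24620, and 19363 to 20065 against 28374 to 28947. Such a sum follows the most abundant genes. The median log2 fold change of the tested markers was -0.39, -0.31, -0.58 and -0.09 in the same order. Adipoq fell by 1.32 and 1.29 on the log2 scale in the overexpression sets, in which Pdgfra, Pdgfrb and Ptn fell too. Endothelial markers summed to at most 0.442 RPKM over 8 genes, none of which could be tested. Of 12 pericyte and smooth muscle markers, 6 were tested, and 1, 3, 1 and 3 rose while 4, 2, 2 and 2 fell, in the order labelled Foxk1 overexpression, Foxk1 knockdown, Foxk2 overexpression, Foxk2 knockdown. Over all tested genes, 24.1%, 20.4%, 23.0% and 18.0% rose and 23.8%, 15.5%, 22.0% and 15.7% fell in that order. Myh11, the smooth muscle myosin (-1.38, 0.34, -1.69, 0.81), and Tagln, an actin-binding protein (-0.53, 0.27, -0.40, 1.09), were called in all 4 with the direction of Pdgfrb, and Acta2, smooth muscle actin, in 3 (-0.70, 0.60 and, in the Foxk2 knockdown, 1.44). Des, the muscle intermediate filament desmin, went the other way in all 4 (0.65, -0.70, 1.13, -0.71). Mcam, also on this list, went the other way in both knockdowns (-0.23 for Foxk1 and -0.34 for Foxk2). It fell by 0.16 with labelled Foxk1 overexpression and was not called with Foxk2 overexpression. The list summed to 74.8 to 81.0 RPKM against 92.1 to 102, 148 to 159 against 135 to 139, 97.0 to 99.3 against 92.0 to 98.9, and 86.9 to 88.0 against 82.0 to 83.7. Kcnj8 was at 0 in all libraries and Rgs5 at no more than 0.014 RPKM. The part of mural cells in the Pdgfrb values was not tested.

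Of 10 macrophage markers 4 were tested, and the list summed to 4.80 to 5.47 RPKM against 6.23 to 6.98, 7.09 to 8.01 against 4.58 to 5.50, 4.73 to 5.24 against 6.07 to 6.77, and 6.73 to 8.03 against 3.78 to 4.03 in the same order. Cd14, a lipopolysaccharide coreceptor, was called in all 4 with the direction of Pdgfra (-1.08, 1.02, -0.63, 0.84). Cd68 rose by 0.69 in the Foxk2 knockdown, and Csf1r rose by 0.25 with labelled Foxk1 overexpression. In the same order 1, 1, 0 and 2 of the tested markers rose and 1, 0, 1 and 0 fell. Of all tested genes 24.1%, 20.4%, 23.0% and 18.0% rose and 23.8%, 15.5%, 22.0% and 15.7% fell. C1qb was at 0 in all libraries and Ptprc at no more than 0.0027 RPKM. The part of these markers in the results above was not tested.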

How the data were processed

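RNA was sequenced from 20 libraries of 3T3-L1 adipocytes in 8 groups. The deposited table gives RPKM per gene and library, made by the authors with HISAT2 2.1.0, Picard 1.141, featureCounts of Subread 1.5.1 and edgeR on mm10, per the submitters' processing notes. The annotation and strand setting are not given in the sources used here. Multiplying the deposited RPKM by GENCODE M21 exon lengths gave whole reads (within 0.1 read) for 100% of the positive values of genes with matching identifier versions, and depth was recovered from these steps. It limits Pdgfb, Pdgfd and Mdk, with 3 to 39, 0 to 1 and 0 to 4 reads a library. For 5749 genes without a matching identifier version, Pdgfb and Pdgfd among them, the shortest length that gave whole reads was used.

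The test took the 15981 genes that reached 0.5 RPKM in 2 or more libraries, on log2(RPKM + 0.5) with limma 3.58.1 in R 4.3.3 (trended prior variance, 12 residual degrees of freedom, Benjamini-Hochberg adjustment over all genes, two-sided, called at adjusted p under 0.05). One model held all 8 groups, which share an estimate of the spread. Fold changes on this scale understate those of low genes. The same fit was also run on simulated reads with a fixed spread, and the outcome is not given here.

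The 8 genes, the pathway and the marker lists were chosen with earlier results of these data known. Named were all 8 genes, Foxk1 and Foxk2, up to 3 called genes of smallest p per list, comparison and direction, the members of a list that went one way in all comparisons where few, and the 3 nearest genes to Pdgfra, Pdgfrb and Ptn. Dusp6, the antisense genes and the markers given by level (Adipoq, Dlk1, Kcnj8, Rgs5, C1qb, Ptprc, Alk, Ptprz1) were chosen after their values were seen. Alternatives were other pseudocounts, filters, scalings, variance estimates and samples in the fit, a count model (voom) on the recovered reads, the replicate number as a block, and leaving out each library. Start regions came from RefSeq (GRCm38.p6).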

Additional observations from a re-analysis of the deposited data

Results flagged for a closer look

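The effects of the 2 factors differed by the test of the difference itself (limma, adjusted p under 0.05) in 8 cases. Between the overexpression sets, labelled Foxk1 minus Foxk2 on the log2 scale, the difference was -1.63 for Ptn, -0.86 for Pdgfra, 0.47 for Pdgfrb, 0.45 for Pdgfa and -0.31 for Pdgfc (adjusted p = 0.0243). Between the knockdowns, Foxk1 minus Foxk2, it was -0.87 for Pdgfra, -0.87 for Ptn and -0.72 for Pdgfrb. The sign of the Pdgfra and Pdgfrb differences was the same between the knockdowns and opposite between the overexpression sets. The Foxk1 and Foxk2 sets also differ in depth and in the level of their controls, and Foxk1 itself was not raised where the label says it was overexpressed, so factor and set cannot be told apart in these differences.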

How the results depend on the processing

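Of the 290 recomputed effects that had been called against a set's own controls, 289 kept direction and call, and of the 389 called differences of effects 378 did; none of these changed sign. Effects that had not been called changed sign in 6 of 75 recomputations (Pdgfa and Pdgfc with labelled Foxk1 overexpression, Pdgfc in the Foxk2 knockdown, all within 0.04 of 0) and differences in 5 of 71 (Pdgfa between the knockdowns, up to 0.04). Calls changed for Pdgfa and Pdgfc. Pdgfa in the Foxk2 knockdown was 0.27 (limma adjusted p = 0.0904) without replicate 1 of that knockdown, and its adjusted p ranged from 0.000812 to 0.0904 over all alternatives. Pdgfc in the Foxk1 knockdown passed without replicate 2 of its controls (0.19, adjusted p = 0.030). The Pdgfc difference between Foxk2 overexpression and knockdown was lost in the fit of the compared groups alone (adjusted p = 0.0520) and without 1 library in 4 cases: Foxk2 knockdown replicate 1 (0.23, adjusted p = 0.119), its control replicate 1 (0.27, 0.0787), Foxk2 overexpression replicate 1 (0.23, 0.115) and its control replicate 2 (0.28, 0.0696). The Pdgfc difference between the overexpressions was lost under quantile normalization (-0.22, adjusted p = 0.140) and without 1 library in 5 cases, with adjusted p from 0.0515 to 0.117: labelled Foxk1 overexpression replicate 3, its control replicate 1, Foxk2 overexpression replicate 1 and its control replicates 1 and 2. The cause was not tested. All genes called between the knockdown effects, 2287, became 1328 to 2383 without 1 library each; the low counts were 1388 without replicate 1 of the Foxk2 knockdown and 1328 without replicate 2 of its controls. The Foxk2 knockdown split of 2879 higher and 2507 lower genes became 2411 and 3140 with length and GC trends removed, an alternative chosen after seeing the data.

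Whether replicate numbers pair the samples could not be settled. The correlation of same-numbered deviations was 0.0449 to 0.0636 in the Foxk1 knockdown and -0.0875 to -0.0482 in the labelled Foxk1 overexpression. It was 0.0337 in the Foxk2 overexpression and -0.132 in the Foxk2 knockdown. With 2 libraries a group, all pairs of a set give the same number with either sign, which says little. With the replicate number as a block, 3, 4, 5 and 4 of the 5 genes were called in labelled Foxk1 overexpression, Foxk1 knockdown, Foxk2 overexpression and Foxk2 knockdown, with 7335, 5350, 6827 and 4960 of all genes. With the block 4, 5, 5 and 3 of the 5 genes differed between effects (7649, 7458, 3546 and 1833 of all genes), and no call of a single gene changed. Crossing the Foxk2 knockdown numbers in the block gave 4994 calls.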
